A study of Mus musculus with 5 samples.

Results

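The genes described here are 36 transcripts of the NF-kB pathway and of the immediate early response, followed through RNA sequencing of mouse peritoneal lavage cells. They were chosen by symbol, and all 36 were found among the 22815 gene rows of the deposited table. By known role they comprised 5 NF-kB subunits, 5 IkB-type inhibitors and co-regulators, 9 feedback regulators and targets, and 17 immediate early genes. The study used C57BL/6 (wild type, WT) and Irf8-deficient mice, 8 weeks old, and 3 groups were sequenced by Smart-seq2, a method for small amounts of polyadenylated RNA. These were Irf8-deficient mice given pristane (labelled Irf8KO, n = 2), WT mice given pristane (n = 2) and WT mice given phosphate-buffered saline (PBS, n = 1). Pristane is a hydrocarbon oil that causes lasting sterile inflammation of the peritoneum and, in C57BL/6 mice, bleeding in the lung. No source used here gives the kind of Irf8 allele, the time after injection, or whether a library held cells of 1 animal or of several. No Irf8-deficient mice given PBS were analysed here, so the effect of pristane could be read only in WT.

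NF-kB is a family of dimeric transcription factors held in the cytoplasm by IkB proteins. Signals from Toll-like receptors, interleukin-1 and tumour necrosis factor lead to loss of IkB, and the freed dimers switch on cytokines, adhesion molecules and survival genes. Among the genes they switch on are their own brakes, IkB alpha (Nfkbia) and the deubiquitinase A20 (Tnfaip3), so that RNA of these brakes is widely read as a trace of NF-kB activity in macrophages. Immediate early genes, such as the Fos, Jun and Egr families, are transcribed within minutes of many stimuli with no need for new protein, and their RNAs are short-lived. They respond to growth factors and inflammatory signals, and also to the handling of cells.

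The libraries differed in more than their labels. RNA of Irf8, the gene of the genotype, in FPKM (fragments per kilobase of transcript per 1e6 fragments), reached 121 and 59.4 under the Irf8KO label, against 63.3 and 48.7 in WT pristane and 32.4 in WT PBS. It was not lower under that label (log2 change against WT pristane 0.60 ± 0.41 SE, adjusted p = 0.471, limma). As the kind of allele is not given, this RNA cannot check the genotype. Directions below are those of the libraries as labelled. Transcripts of the sex chromosomes also differed between libraries, within WT as well. Xist, made from an inactive X chromosome, gave 0 FPKM for WT pristane replicate 1 and 8.81 for replicate 2, against 43.5 in WT PBS, while the Y-linked Eif2s3y gave 12.9 and 0, against 0 in WT PBS. Under the Irf8KO label Xist was at most 0.0148 FPKM and Eif2s3y at least 23.2 FPKM. Both transcripts thus differed along every comparison below, and the part of sex in the results was not tested. In Irf8KO pristane against WT PBS they split with the groups, so sex and group cannot be told apart there. Summed FPKM ran from 451694 to 582696 per library. A single fragment on a 1 kb transcript was worth an estimated 0.201 to 0.442 FPKM, as read from the steps between the lowest values.

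Cell makeup differed between the groups as well. Summed FPKM of 9 neutrophil markers was 48561 and 24968 in the libraries labelled Irf8KO and 17057 and 15568.5 in WT pristane, against 168 in WT PBS. S100a8 and S100a9 gave most of each sum. Without them the sums were 7237 and 3447 FPKM under the Irf8KO label and 1386 and 1858 in WT pristane, against 36.3 in WT PBS. Il1r2 was lower under the Irf8KO label (170 and 107 FPKM) than in WT pristane (212 and 321 FPKM). Csf3r and S100a9 overlapped between these groups, and the other listed neutrophil markers were higher under the Irf8KO label. The 7 inflammatory monocyte markers summed to 212 and 98.3 FPKM in the Irf8KO-labelled libraries and to 1098 and 2159 in WT pristane, against 808 in WT PBS. Plac8 gave 706 of the 808 FPKM, and without it the sums were 103 and 41.2 FPKM in the Irf8KO-labelled libraries and 459 and 1296 in WT pristane, against 102 in WT PBS. The 8 markers of large resident peritoneal macrophages summed to 1547 and 2619 FPKM in the Irf8KO-labelled libraries and to 140 and 221 in WT pristane, against 2247 in WT PBS. Timd4, one of these markers, did not follow the sum, at 0.0957 and 0.552 FPKM in the Irf8KO-labelled libraries and 0.676 and 0.838 in WT pristane, against 26.9 in WT PBS. The 7 B cell markers summed to 228 and 111 FPKM in the Irf8KO-labelled libraries and to 50.9 and 12.4 in WT pristane, against 2951 in WT PBS. No defining marker of these 4 cell types was at 0 in any library, except Il1r2, a neutrophil gene, in WT PBS. In such mixtures fewer cells of a type and less RNA per cell cannot be told apart. The neutrophil and B cell sums differed without overlap along every comparison below. The resident macrophage sum of WT PBS lay between those of the 2 Irf8KO-labelled libraries. Without Plac8 the monocyte sum of replicate 1 labelled Irf8KO (103 FPKM) was close to that of WT PBS (102 FPKM). The part of cell makeup in the results was not tested.

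Promoter sequence is shown for 7 members, to set 3 kinds of motif beside the values that follow. RefSeq (GRCm38.p6) gave promoter windows, from 250 bases before to 50 after each start, for 30 of the 36 members, 37 windows in all. A kappa B consensus was found on either strand in 14 of the 37 windows (37.8%), against 4.51% of all 32851 windows. These 14 windows belonged to 9 of 16 NF-kB members (Nfkbia, Tnfaip3, Tnip1, Nfkb2, Nfkbie, Bcl3, Sod2, Rel and Ier3) and 3 of 14 immediate early members (Fos, Fosb and Fosl2). Its carriers included members near or below PBS, as in WT pristane Rel had a log2 change of −0.02, Ier3 of 0.24, Fos of −0.49 and Fosb of −0.62. The CArG box, bound by serum response factor, was found in 5 of the 37 windows (13.5%, 1.63% of all windows), which belonged to Zfp36 and Egr2. The cAMP response element TGACGTCA was found in 2 of the 37 (5.41%, 1.79% of all), those of Btg2 and Dusp1, and the AP-1 element TGANTCA in 3 of the 37 (8.11%, 7.81% of all), those of Tnfaip3, Nfkb2 and Nfkbie. Several windows of Egr2 and Nfkb2 overlap, so they are not independent. The window of Tnf held none of these motifs, which says only that the letters are not in that stretch. A match is a string of letters, not a shown binding site.

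The first 3 stretches carry the kappa B consensus in capitals and belong to NF-kB feedback genes, of which Tnfaip3 alone passed the test in WT pristane against WT PBS. Each is the 200 bases before the start, 5′ to 3′ on the strand of the gene. In Nfkbia the match begins 29 bases before the start. In Tnfaip3, at 1 of its 2 listed starts, the matches begin 125 and 12 bases before it, and an AP-1 element left in lower case begins 136 bases before it. In Tnip1 overlapping matches that begin 58 to 56 bases before the start run together.
Nfkbia (chr12:55492648-55492847, minus strand): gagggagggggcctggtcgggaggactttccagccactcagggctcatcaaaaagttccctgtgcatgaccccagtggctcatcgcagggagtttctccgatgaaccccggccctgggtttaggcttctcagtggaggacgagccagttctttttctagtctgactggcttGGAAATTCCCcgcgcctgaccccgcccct
Tnfaip3 (chr10:19015411-19015610, minus strand): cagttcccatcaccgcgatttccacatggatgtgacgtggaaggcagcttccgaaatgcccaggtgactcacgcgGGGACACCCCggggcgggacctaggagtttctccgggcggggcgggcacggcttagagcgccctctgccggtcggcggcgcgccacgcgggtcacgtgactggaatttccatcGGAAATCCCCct
Tnip1 (chr11:54962941-54963140, minus strand): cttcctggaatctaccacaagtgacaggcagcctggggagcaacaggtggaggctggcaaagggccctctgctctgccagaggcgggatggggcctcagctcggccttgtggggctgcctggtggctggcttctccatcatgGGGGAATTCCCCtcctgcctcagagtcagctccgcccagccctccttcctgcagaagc

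The next stretches carry the CArG box in capitals, 58 bases before the start of Zfp36 and 72 before that of Egr2 (at 1 of its 5 listed starts). These 2 genes lay on opposite sides of the PBS library after pristane.
Zfp36 (chr7:28379229-28379428, minus strand): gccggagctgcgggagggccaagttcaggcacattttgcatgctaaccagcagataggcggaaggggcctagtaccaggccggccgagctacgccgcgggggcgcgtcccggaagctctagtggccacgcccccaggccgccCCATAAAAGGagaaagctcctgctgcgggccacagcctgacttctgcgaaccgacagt
Egr2 (chr10:67537669-67537868, plus strand): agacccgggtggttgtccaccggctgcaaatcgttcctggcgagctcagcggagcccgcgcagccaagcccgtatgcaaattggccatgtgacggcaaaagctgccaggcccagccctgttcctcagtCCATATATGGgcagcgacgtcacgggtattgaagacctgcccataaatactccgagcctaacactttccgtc

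The last pair carries the cAMP response element in capitals, 166 bases before the start of Btg2 and 143 before that of Dusp1. These 2 genes also lay on opposite sides of the PBS library after pristane.
Btg2 (chr1:134079156-134079355, minus strand): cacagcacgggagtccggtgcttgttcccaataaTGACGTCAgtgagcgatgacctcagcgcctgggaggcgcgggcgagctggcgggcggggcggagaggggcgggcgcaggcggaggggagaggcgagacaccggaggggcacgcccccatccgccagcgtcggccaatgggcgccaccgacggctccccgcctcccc
Dusp1 (chr17:26508473-26508672, minus strand): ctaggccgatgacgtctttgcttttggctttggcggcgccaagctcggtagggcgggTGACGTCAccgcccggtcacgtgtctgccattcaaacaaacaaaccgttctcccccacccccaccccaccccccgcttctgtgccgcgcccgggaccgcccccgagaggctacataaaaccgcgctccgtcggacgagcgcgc

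The members spanned a wide range in level, and the brakes of both pathways led. FPKM is a value per length, so levels of different genes can be set side by side. Nfkbia stood at 2639.6 and 1775 FPKM in the Irf8KO-labelled libraries and 2416 and 1876 FPKM in WT pristane, against 577 FPKM in WT PBS. Among the 22815 rows it ranked between 21 and 33 in the 4 pristane libraries and 123 in WT PBS. Dusp1, the phosphatase that switches off stress kinases, stood at 1722 and 2228 FPKM in the Irf8KO-labelled libraries and 1832 and 1099.8 FPKM in WT pristane, against 893 FPKM in WT PBS. Nfkbia and Dusp1 held the first 2 places among the members in every pristane library, while in WT PBS the order was Dusp1, Junb and Nfkbia. Their order in the pristane libraries was not the same throughout, since Dusp1 led in replicate 2 of the libraries labelled Irf8KO and Nfkbia in the other 3. At the low end stood Egr3 (0.661 to 2.14 FPKM) and Jund (1.09 to 1.99 FPKM), which rest on few fragments. Egr3 was the 1 member under 1 FPKM in any library, and all 36 members passed the filter of at least 1 FPKM in at least 1 library.

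**Figure D1:**
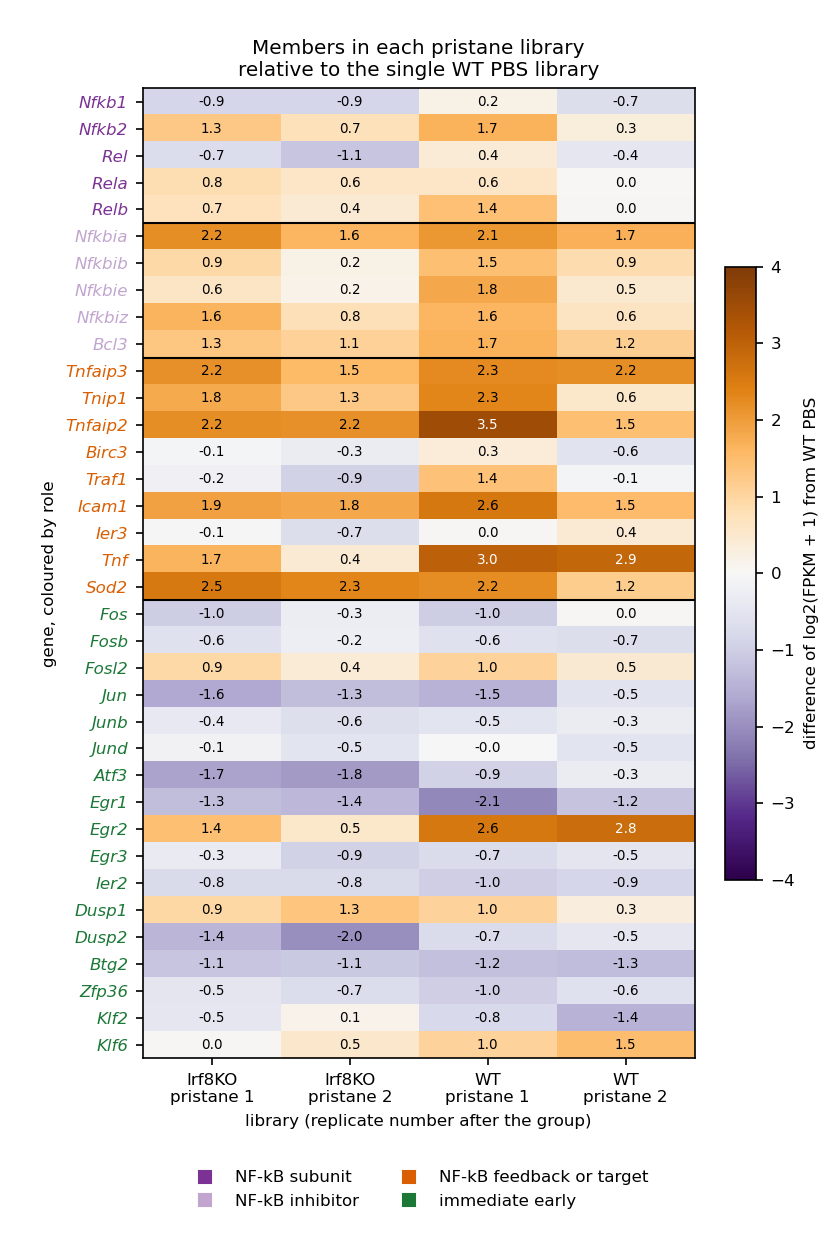
Heat map of the 36 members (rows, grouped by role) in the 4 pristane libraries (columns). Each cell gives the library's log2(FPKM + 1) minus that of the single WT PBS library, so 0 means the PBS level. The inhibitor rows are above PBS in every column, and most immediate early rows are below it apart from Fosl2, Egr2, Dusp1 and Klf6.

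WT pristane against WT PBS asked how the peritoneal cells of normal mice differed after the oil. NF-kB inhibitors, feedback genes and targets lay mostly above the PBS library and the immediate early members mostly below it. Of the 14 inhibitors, feedback genes and targets, 13 had a positive log2 change, with a median of 1.43, and of the 17 immediate early genes 13 had a negative one, with a median of −0.60. The median over all 11117 genes tested was −0.07. Tnfaip3 and Egr2 rose and Btg2 fell past the test, 3 of 36 members, while 10.6% of all genes passed (5.18% higher, 5.46% lower; limma on log2(FPKM + 1), adjusted p under 0.05 over all genes). At an unadjusted p under 0.05, 8 members were higher and 4 lower, against 15.9% and 17.8% of all genes (33.8% in either direction). Both pristane values lay above PBS in 19 members and below it in 12, against 37.3% and 44.5% of all genes. The share of members past the test was close to that of all genes. The spread of the single PBS library was taken to be that of the pristane pairs.

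No NF-kB subunit passed the test. Rela, the main activating subunit, stood at 26.2 and 17.8 FPKM in WT pristane, against 17.4 FPKM in WT PBS. Nfkb1, which encodes the p50 partner and its precursor p105, stood at 19.4 and 10.2 FPKM, against 16.8 FPKM in WT PBS. Rel, the subunit abundant in lymphocytes and macrophages, stood at 41.0 and 22.5 FPKM, against 30.8 FPKM in WT PBS. For Nfkb1 and Rel the PBS value lay between the 2 pristane values. Nfkb2, which encodes p100 and p52 of the alternative pathway, stood at 44.0 and 16.5 FPKM, against 13.04 FPKM in WT PBS. Its partner Relb stood at 54.2 and 20.4 FPKM, against 19.7 FPKM in WT PBS. In both genes replicate 1 was far above PBS and replicate 2 close to it. The 5 subunits had log2 changes between −0.24 and 1.001 and adjusted p between 0.346 and 0.987. The direction of Rel depended on scaling (−0.02 as reported, 0.06 with median-of-ratios factors).

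All 5 inhibitors and co-regulators were above PBS in both WT pristane libraries. Nfkbia, which encodes IkB alpha, stood at 2416 and 1876 FPKM in WT pristane, against 577 FPKM in WT PBS, 3.72 times as much on average (log2 change 1.88 ± 0.38 SE, adjusted p = 0.0569). It missed the threshold here and passed it with libraries rescaled to an equal sum (adjusted p = 0.0388) or with a mean of at least 5 FPKM as the filter (adjusted p = 0.0275). It also missed with a pseudocount of 0.1 FPKM, no filter or median-of-ratios factors (adjusted p = 0.0713, 0.089 and 0.054, limma). Nfkbiz, which encodes the nuclear co-activator IkB zeta, stood at 256 and 130 FPKM, against 82.9 FPKM in WT PBS. Bcl3, another nuclear IkB, stood at 14.5 and 9.87 FPKM, against 3.90 FPKM in WT PBS (log2 change 1.41 ± 0.32 SE, adjusted p = 0.0699). For these 3 genes both pristane values lay clear of the PBS value. Nfkbib and Nfkbie, the beta and epsilon forms of IkB, had log2 changes of 1.17 and 1.16, with adjusted p of 0.161 and 0.282.

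Tnfaip3 was the NF-kB member that passed the test. It encodes A20, which removes ubiquitin chains from signalling proteins upstream of NF-kB. It stood at 215 and 205 FPKM in WT pristane, against 43.8 FPKM in WT PBS, and rose by 4.79 times on average (log2 change 2.23 ± 0.33 SE, adjusted p = 0.0378). With no filter its adjusted p was 0.0575 (limma). The 2 pristane values were close to each other and far from PBS. Tnf, the cytokine that both triggers and follows NF-kB, had the largest log2 change among the members. It stood at 737 and 671 FPKM in WT pristane, against 90.2 FPKM in WT PBS (log2 change 2.95 ± 0.56 SE, adjusted p = 0.0532). Its pristane replicates were again close together. It passed the test with libraries rescaled to an equal sum (adjusted p = 0.0429) or with a mean of at least 5 FPKM as the filter (adjusted p = 0.0234). It did not pass with a pseudocount of 0.1 FPKM, no filter or median-of-ratios factors (adjusted p = 0.0646, 0.089 and 0.0521, limma).

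The other targets were less even between the WT pristane libraries. Tnfaip2, a TNF-inducible gene, stood at 39.6 and 9.05 FPKM, against 2.65 FPKM in WT PBS (log2 change 2.47 ± 0.90 SE, adjusted p = 0.151). Icam1, the adhesion molecule that binds leukocyte integrins, stood at 80.7 and 37.3 FPKM, against 12.5 FPKM in WT PBS (log2 change 2.05 ± 0.51 SE, adjusted p = 0.08). Sod2, the mitochondrial superoxide dismutase, stood at 123 and 57.7 FPKM, against 25.2 FPKM in WT PBS. In each of these genes replicate 1 held more than 2 times the level of replicate 2, and both were above PBS. Tnip1, the partner of A20, stood at 55.4 and 15.4 FPKM, against 10.2 FPKM in WT PBS. Traf1, a signalling adaptor, stood at 27.0 and 8.98 FPKM, against 9.59 FPKM in WT PBS, so that the groups overlapped. Ier3, a survival gene, and Birc3, the ubiquitin ligase cIAP2, had log2 changes of 0.24 and −0.10.

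**Figure D2:**
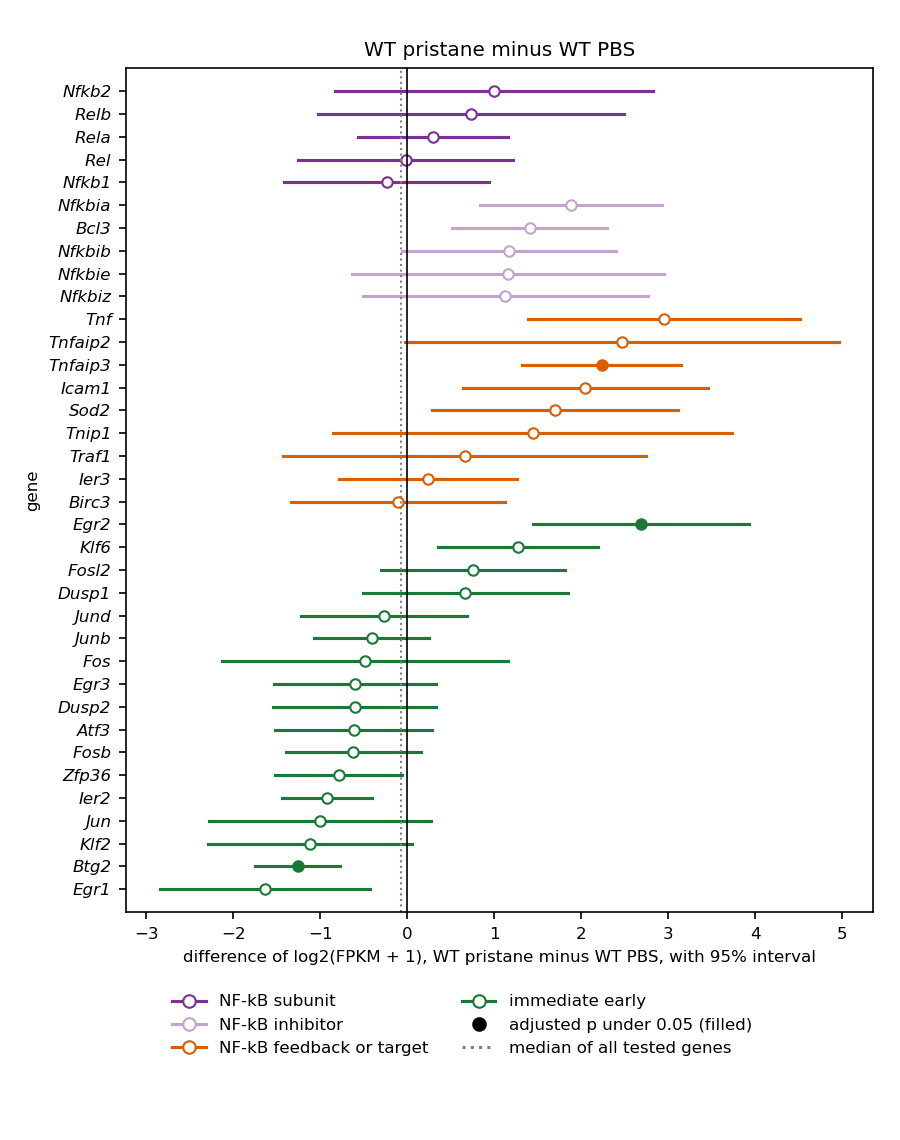
Difference of log2(FPKM + 1) between WT pristane (n = 2) and WT PBS (n = 1) for each member, with its 95% interval from limma. Filled points passed an adjusted p under 0.05 (Tnfaip3, Egr2 and Btg2), and the dotted line marks the median of all genes tested, −0.07.

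Most of the 17 immediate early members were lower in WT pristane than in the PBS library. A further list, given below and not made up of such genes alone, did not share this. Btg2, which slows cell division and is a target of p53, stood at 56.7 and 53.6 FPKM in WT pristane, against 133 FPKM in WT PBS, and fell past the test (log2 change −1.26 ± 0.18 SE, adjusted p = 0.035). Egr1, a zinc finger factor of the immediate early response, stood at 55.1 and 105 FPKM, against 238 FPKM in WT PBS (log2 change −1.63 ± 0.43 SE, adjusted p = 0.0904). Ier2, a nuclear protein of unsettled function, stood at 168 and 185 FPKM, against 335 FPKM in WT PBS (log2 change −0.92 ± 0.19 SE, adjusted p = 0.0585). All pristane values of these 3 genes lay below the PBS value. Klf2, a factor that keeps monocytes and T cells quiescent, stood at 21.7 and 13.5 FPKM, against 38.4 FPKM in WT PBS. Zfp36, which encodes the RNA decay factor tristetraprolin that removes Tnf RNA, stood at 104 and 139 FPKM, against 208 FPKM in WT PBS (log2 change −0.79 ± 0.26 SE, adjusted p = 0.132).

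The AP-1 genes gave no call. Jun stood at 27.2 and 52.5 FPKM in WT pristane, against 76.9 FPKM in WT PBS, with an adjusted p of 0.216. Fos, its partner, stood at 126 and 264 FPKM, against 256 FPKM in WT PBS, so that the groups overlapped. Junb, Jund and Fosb had log2 changes between −0.62 and −0.27. Fosl2, the Fos-related factor of slower kinetics, was above PBS in both libraries with a log2 change of 0.76 ± 0.38 SE. Atf3, a stress-induced repressor of inflammatory genes, stood at 65.0 and 101 FPKM, against 124 FPKM in WT PBS.

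Egr2 went the other way from Egr1 and Egr3. Egr2, a zinc finger factor active in macrophages and lymphocytes, stood at 24.6 and 28.2 FPKM in WT pristane, against 3.26 FPKM in WT PBS, and rose by 8.11 times on average (log2 change 2.68 ± 0.45 SE, adjusted p = 0.0445). With a pseudocount of 0.1 FPKM its adjusted p was 0.0547, and with no filter 0.0709 (limma). Klf6, a Kruppel-like factor that promotes inflammatory macrophage genes, stood at 151 and 207 FPKM, against 72.6 FPKM in WT PBS (log2 change 1.27 ± 0.33 SE, adjusted p = 0.0869). In both genes the pristane libraries lay clear above PBS. Dusp1 had a log2 change of 0.67 ± 0.42 SE, and Dusp2, a nuclear phosphatase of MAP kinases, one of −0.60 ± 0.34 SE.

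Fits with 1 pristane library left out have fewer degrees of freedom, whichever library it is. The loss of calls in them therefore cannot decide how firm these calls are. With any 1 of the 4 pristane libraries left out, no gene of the table passed the test, while 2755 to 3755 genes had an unadjusted p under 0.05. The log2 change then lay between 2.2003 and 2.268 for Tnfaip3, 2.59 and 2.78 for Egr2 and −1.30 and −1.22 for Btg2, with adjusted p between 0.0756 and 0.139 for the 3 genes. The median over all 36 members was 0.48, and it was 0.046 without WT pristane replicate 1 and 0.80 without WT pristane replicate 2.

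**Figure D3:**
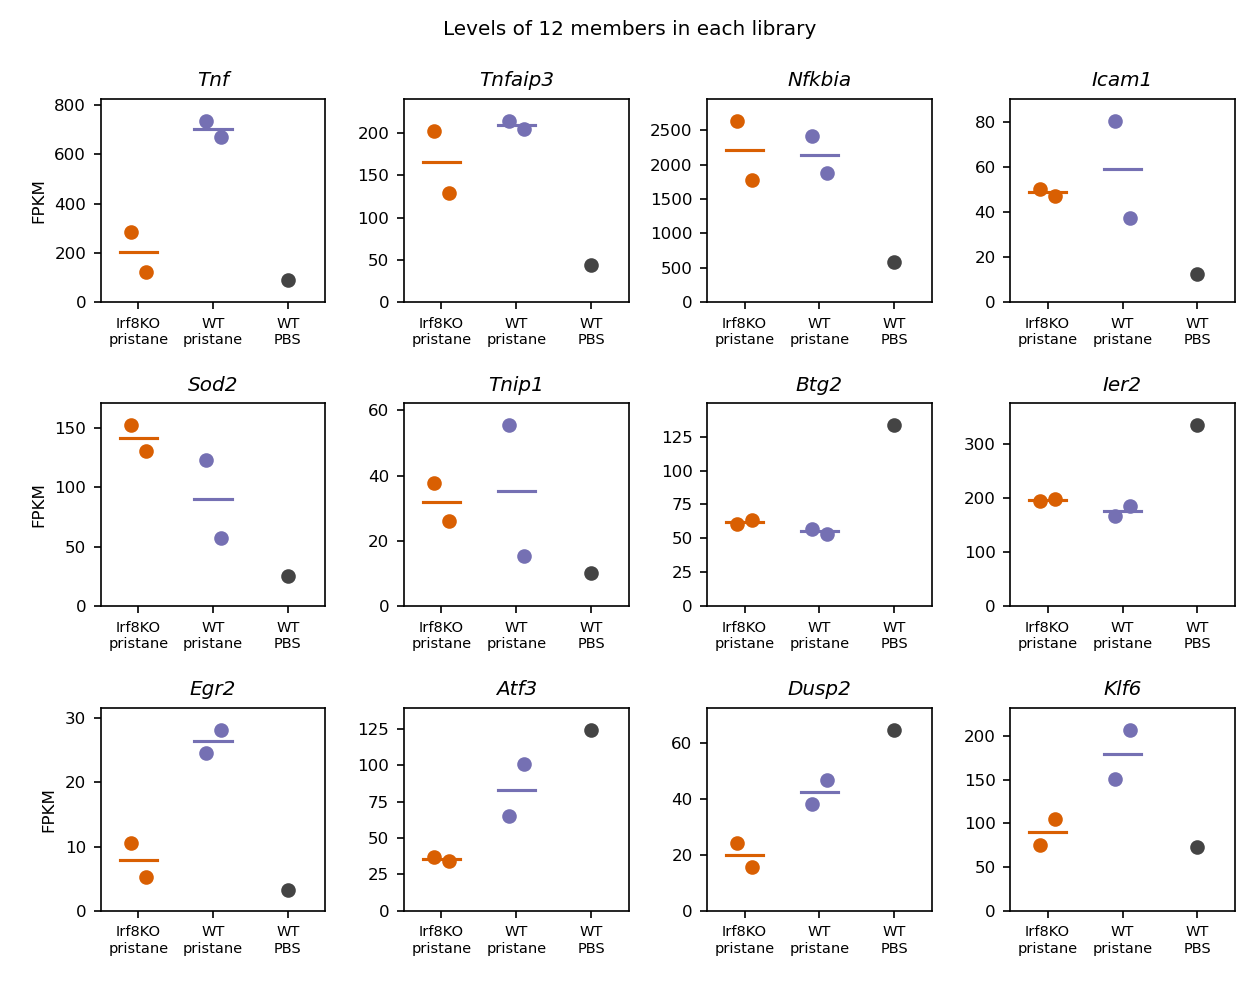
FPKM of 12 members in each library (points), with the mean of each pair as a bar. Tnf and Egr2 stand highest in the WT pristane pair, Tnfaip3 and Nfkbia are high in all 4 pristane libraries, and Btg2 and Ier2 are highest in the single WT PBS library.

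Irf8KO pristane against WT pristane asked which responses differed with the genotype label among pristane-treated mice. No member passed the test in either direction, while 0.027% of all genes did, 3 genes in all. At an unadjusted p under 0.05, 5 members were lower (Tnf, Egr2, Atf3, Dusp2 and Klf6) and 0 higher, against 10.1% and 10.5% of all genes (20.6% in either direction). The members' median log2 change was −0.12, against −0.0018 for all genes, and 10 members were lower and 5 higher with no overlap between the pairs, where 27.1% and 26.1% of all genes were.

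Tnf had the largest difference of the members. It stood at 286 and 122 FPKM in the Irf8KO-labelled libraries, against 737 and 671 FPKM in WT pristane (log2 change −1.91 ± 0.46 SE, adjusted p = 0.158). The pairs did not overlap, and the mean of the libraries labelled Irf8KO was 0.29 of that of WT pristane. The log2 change lay between −2.52 and −1.30 with any 1 library left out, and the adjusted p was 0.0629 when the 4 pristane libraries were fitted alone.

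Egr2 stood at 10.6 and 5.22 FPKM in the Irf8KO-labelled libraries, against 24.6 and 28.2 FPKM in WT pristane (log2 change −1.69 ± 0.36 SE, adjusted p = 0.139). Atf3 stood at 37.1 and 34.2 FPKM, against 65.0 and 101 FPKM in WT pristane (log2 change −1.16 ± 0.26 SE, adjusted p = 0.15). Dusp2 stood at 24.2 and 15.6 FPKM, against 38.2 and 46.7 FPKM in WT pristane (log2 change −1.08 ± 0.28 SE, adjusted p = 0.166). None of these pairs overlapped, and all 3 genes kept a negative log2 change under each alternative tried, left-out libraries included. Klf6 stood at 75.0 and 104 FPKM, against 151 and 207 FPKM in WT pristane (log2 change −0.99 ± 0.27 SE, adjusted p = 0.18). In the same libraries inflammatory monocyte markers summed to 212 and 98.3 FPKM, against 1098 and 2159 FPKM in WT pristane, and resident macrophage markers to 1547 and 2619 FPKM, against 140 and 221 FPKM in WT pristane. Their part in these differences was not tested.

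Among the feedback genes, Nfkbia stood at 2639.6 and 1775 FPKM in the Irf8KO-labelled libraries, against 2416 and 1876 FPKM in WT pristane. Its log2 change was 0.02 with a 95% interval from −0.83 to 0.88, and −0.21 with libraries rescaled to an equal sum. Tnfaip3 stood at 202 and 130 FPKM, against 215 and 205 FPKM in WT pristane, with a log2 change of −0.37 and an interval from −1.11 to 0.37. Both intervals hold differences of either sign. Whether Tnf differed more than Nfkbia or Tnfaip3 was not tested. Sod2 was the NF-kB target above WT pristane in both libraries labelled Irf8KO, at 152 and 130 FPKM, against 123 and 57.7 FPKM, with a log2 change of 0.73 ± 0.41 SE. Traf1 stood at 8.41 and 4.59 FPKM, against 27.0 and 8.98 FPKM in WT pristane, and Ier3 at 336 and 218 FPKM, against 359.7 and 472 FPKM in WT pristane, both without overlap. The other inhibitors (Nfkbib, Nfkbie, Nfkbiz and Bcl3) overlapped between the groups, with log2 changes between −0.77 and 0.08. Tnip1, Tnfaip2, Birc3 and Icam1 overlapped as well, with log2 changes between −0.27 and 0.09.

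Among the subunits, Rel and Nfkb1 were lower with no overlap. Rel stood at 18.4 and 13.6 FPKM in the Irf8KO-labelled libraries, against 41.0 and 22.5 FPKM in WT pristane (log2 change −0.90 ± 0.36 SE, adjusted p = 0.273). Nfkb1 stood at 8.75 FPKM in both, against 19.4 and 10.2 FPKM in WT pristane (log2 change −0.63 ± 0.35 SE). Rela stood at 31.4 and 26.6 FPKM, against 26.2 and 17.8 FPKM in WT pristane (log2 change 0.40 ± 0.25 SE). Nfkb2 and Relb overlapped between the groups. None of the 5 passed the test.

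Among the immediate early genes, Klf2 had the largest positive log2 change of the members. It stood at 27.6 and 42.3 FPKM in the Irf8KO-labelled libraries, against 21.7 and 13.5 FPKM in WT pristane (log2 change 0.95 ± 0.34 SE, adjusted p = 0.242). Btg2 stood at 60.3 and 63.2 FPKM, against 56.7 and 53.6 FPKM in WT pristane, with a log2 change of 0.16 and a 95% interval from −0.24 to 0.56. With libraries rescaled to an equal sum it was −0.07. Ier2 stood at 195 and 198 FPKM, against 168 and 185 FPKM in WT pristane, with a log2 change of 0.16 ± 0.15 SE (−0.08 with that rescaling). Under that rescaling the median of all genes was −0.20 in this comparison and −0.26 in Irf8KO pristane against WT PBS, and members' values under it are to be read against those medians. Dusp1 stood at 1722 and 2228 FPKM, against 1832 and 1099.8 FPKM in WT pristane, and overlapped. Egr1, Fos, Fosb, Fosl2, Jun, Junb, Jund, Egr3 and Zfp36 overlapped too.

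**Figure D4:**
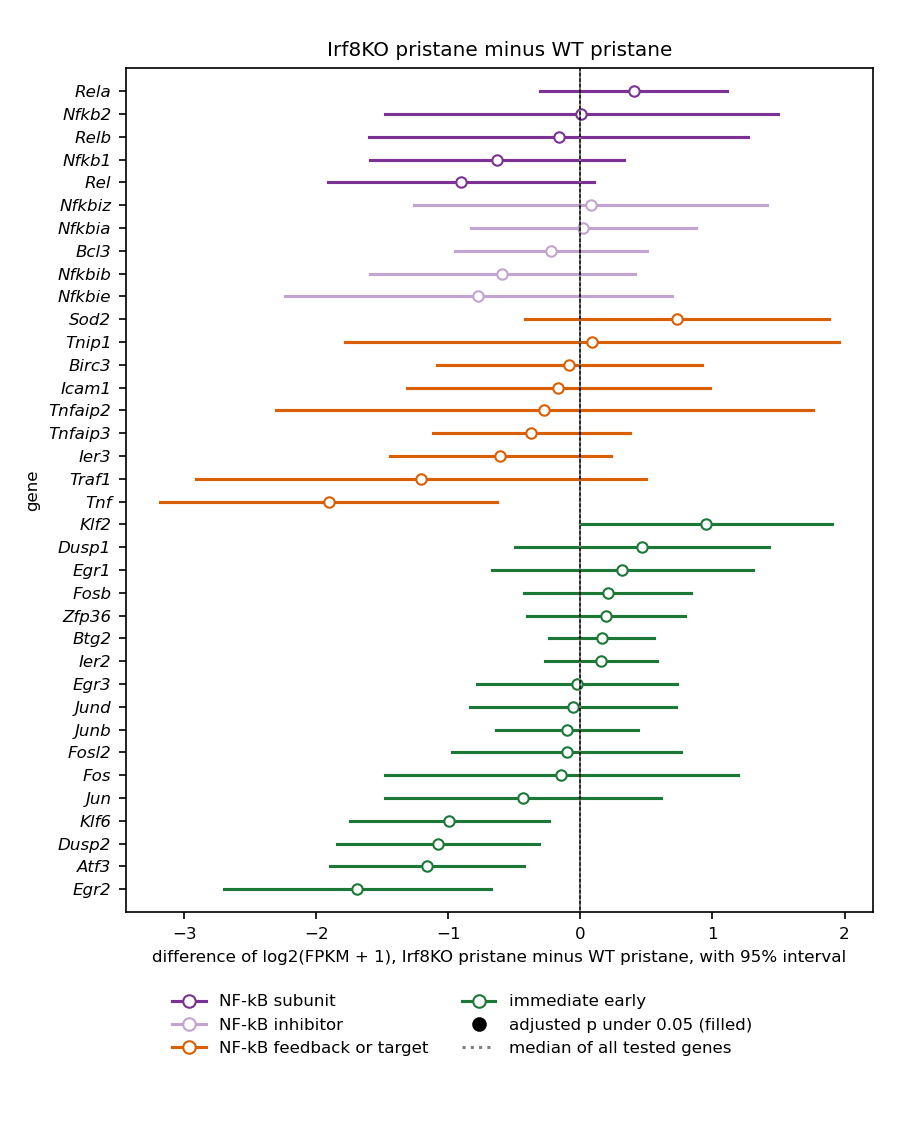
Difference of log2(FPKM + 1) between Irf8KO pristane (n = 2) and WT pristane (n = 2) for each member, with its 95% interval from limma. No point is filled, as no member passed an adjusted p under 0.05, and the intervals of Tnf, Egr2, Atf3, Dusp2 and Klf6 lie wholly below 0.

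The comparison of Irf8KO pristane with WT PBS shares the PBS library with the comparison of WT pristane, so its values are set beside that comparison without a test of likeness. Btg2 fell past the test, 1 of 36 members, while 8.54% of all genes passed (3.81% higher, 4.72% lower). It stood at 60.3 and 63.2 FPKM in the Irf8KO-labelled libraries, against 133 FPKM in WT PBS (log2 change −1.10 ± 0.18 SE, adjusted p = 0.0458). The 14 inhibitors, feedback genes and targets had a median log2 change of 1.195, with 11 positive, and the 17 immediate early genes one of −0.59, with 13 negative. The median over all genes was −0.05. At an unadjusted p under 0.05, 5 members were higher and 6 lower, against 15.6% and 18.1% of all genes (33.7% in either direction), and both values lay above PBS in 18 members and below it in 17, against 40.7% and 46% of all genes. With any 1 pristane library left out, no gene passed, and the adjusted p of Btg2 lay between 0.0708 and 0.206.

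Sod2 had the largest log2 change here. It stood at 152 and 130 FPKM in the Irf8KO-labelled libraries, against 25.2 FPKM in WT PBS, 5.59 times as much on average (log2 change 2.43 ± 0.51 SE, adjusted p = 0.0646). Tnfaip2 stood at 15.9 and 15.6 FPKM, against 2.65 FPKM in WT PBS (log2 change 2.197 ± 0.896 SE). Nfkbia had a log2 change of 1.91 ± 0.38 SE (adjusted p = 0.0588) and Tnfaip3 one of 1.86 ± 0.33 SE (adjusted p = 0.0523). Tnf stood at 286 and 122 FPKM, against 90.2 FPKM in WT PBS, with a log2 change of 1.04 ± 0.56 SE. Each of these genes lay above PBS in both libraries. Traf1, Ier3 and Birc3 lay below it in both, with log2 changes between −0.55 and −0.19. Among the immediate early genes, Dusp1 lay above it with a log2 change of 1.13 ± 0.42 SE (adjusted p = 0.159) and Egr2 with one of 0.99 ± 0.45 SE (adjusted p = 0.208).

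On the other side, Atf3 stood at 37.1 and 34.2 FPKM in the Irf8KO-labelled libraries, against 124 FPKM in WT PBS (log2 change −1.78 ± 0.32 SE, adjusted p = 0.0546). Dusp2 stood at 24.2 and 15.6 FPKM, against 64.7 FPKM in WT PBS (log2 change −1.68 ± 0.34 SE, adjusted p = 0.0602). Jun stood at 24.6 and 31.3 FPKM, against 76.9 FPKM in WT PBS (log2 change −1.44 ± 0.46 SE, adjusted p = 0.123). Egr1 stood at 98.2 and 92.2 FPKM, against 238 FPKM in WT PBS (log2 change −1.31 ± 0.43 SE, adjusted p = 0.13). All of these lay below PBS in both libraries. Tnfaip3 and Dusp2 passed the test with libraries rescaled to an equal sum (adjusted p = 0.0479 and 0.0484), and Tnfaip3 also with median-of-ratios factors (adjusted p = 0.0498). With a mean of at least 5 FPKM as the filter, Sod2, Nfkbia, Tnfaip3, Atf3 and Dusp2 all passed. None of these genes passed with a pseudocount of 0.1 FPKM or with no filter.

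NF-kB members also differed between the 2 libraries of a pair. Replicate 1 was higher than replicate 2 in 18 of the 19 NF-kB members in the libraries labelled Irf8KO, and in 18 of 19 in WT pristane. The median difference between replicates was 0.47 on the log2(FPKM + 1) scale in the libraries labelled Irf8KO and 0.90 in WT pristane, against 0.00 and 0.04 over all genes tested. The exceptions were Nfkb1 in the libraries labelled Irf8KO, with a difference of 0.00, and Ier3 in WT pristane. Tnfaip2 and Tnip1 differed most in WT pristane, by 2.02 and 1.78, and Tnf in the libraries labelled Irf8KO, by 1.22. Of the 17 immediate early genes, 9 were higher in replicate 1 in the libraries labelled Irf8KO (median 0.09) and 6 in WT pristane (median −0.20). In the same libraries neutrophil markers summed to 48561 FPKM in replicate 1 and 24968 in replicate 2 labelled Irf8KO, and to 17057 and 15568.5 FPKM in WT pristane. Without S100a8 and S100a9 they summed to 7237 and 3447 FPKM in replicates 1 and 2 labelled Irf8KO, and to 1386 and 1858 FPKM in WT pristane, so that replicate 2 was then the higher in WT. B cell markers summed to 228 and 111 FPKM under the Irf8KO label and to 50.9 and 12.4 FPKM in WT pristane, and monocyte markers to 212 and 98.3 FPKM and to 1098 and 2159 FPKM. Resident macrophage markers summed to 1547 and 2619 FPKM under the Irf8KO label and to 140 and 221 FPKM in WT pristane, higher in replicate 2 of both. Xist and Eif2s3y also differed within the WT pristane pair, as given above. The part of these markers in the replicate differences was not tested. Nothing in the labels ties replicate 1 of one group to replicate 1 of the other.

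**Figure D5:**
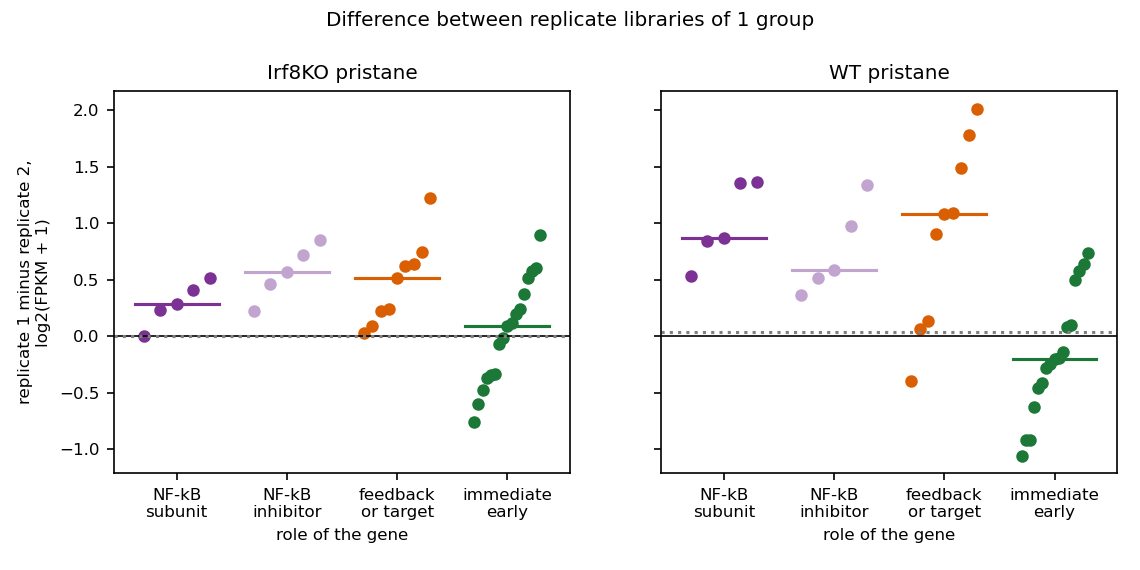
Difference of log2(FPKM + 1) between replicate 1 and replicate 2 of the libraries labelled Irf8KO (left) and of WT pristane (right), with a point per member and a bar at the median of each role. The dotted line is the median of all genes tested. NF-kB members sit almost wholly above 0 in both panels, while immediate early members lie on both sides.

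Further genes of the same pathways were read from 2 added lists. Of 32 NF-kB signalling genes, 31 were tested. In WT pristane against WT PBS 6 rose and 0 fell past the test, where 5.18% of all genes rose and 5.46% fell, with a median log2 change of 0.29 (−0.07 over all genes). Tnip3, a further A20-binding inhibitor, stood at 16.6 and 11.9 FPKM in WT pristane, against 0.227 FPKM in WT PBS, less than 1 fragment is worth there on a 1 kb transcript (log2 change 3.62 ± 0.36 SE, adjusted p = 0.0277). Ripk2, the kinase of NOD receptors, rose to 30.1 and 24.2 FPKM in WT pristane, against 5.47 FPKM in WT PBS. Tnfrsf1a, the main TNF receptor, rose to 75.3 and 78.4 FPKM, against 24.4 FPKM in WT PBS, and the adaptor Myd88 rose too (log2 change 1.82). Against WT PBS, the libraries labelled Irf8KO had 4 that rose and 0 that fell, namely these same 4 genes, where 3.81% of all genes rose and 4.72% fell, with a list median of −0.35 (−0.05 over all genes). Against WT pristane they had none past the test. There 7 were lower and 0 higher at an unadjusted p under 0.05, where 10.1% of all genes were lower and 10.5% higher, with a median of −0.34 (−0.0018 over all genes). Cd40, the receptor for T cell help on B cells, dendritic cells and macrophages, stood at 1.83 and 1.97 FPKM in the Irf8KO-labelled libraries, against 25.2 and 11.3 FPKM in WT pristane (log2 change −2.63 ± 0.42 SE, adjusted p = 0.108).

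The second list held 42 genes, of which 41 were tested. Most were other immediate early and delayed early genes, but some transcription factors in it, such as Elk4 and Batf3, are not classed as such. In WT pristane against WT PBS 4 rose and 1 fell past the test (5.18% and 5.46% of all genes). The median log2 change was 0.34 with 25 positive, while the 17 immediate early members had −0.60 with 13 negative. The kinase Plk3 rose to 30.0 and 24.4 FPKM in WT pristane, against 3.07 FPKM in WT PBS, and the phosphatase Dusp10 fell to 3.58 and 3.24 FPKM, against 12.9 FPKM in WT PBS. Against WT PBS, the libraries labelled Irf8KO had 1 that rose, the transcription factor Nfil3, and 3 that fell, Batf3, Ier5 and Elk4 (3.81% and 4.72% of all genes), with a list median of −0.06. Nfil3 was also among the 4 that rose in WT pristane (log2 change 1.23 ± 0.18 SE, adjusted p = 0.036). Against WT pristane none passed, and 10 were lower and 1 higher at an unadjusted p under 0.05 (10.1% and 10.5% of all genes). The list median there was −0.43 (−0.0018 over all genes), with 27 log2 changes negative and 14 positive. Batf3, a factor of conventional dendritic cells, stood at 0.469 FPKM in replicate 1 labelled Irf8KO and was listed at 0 in replicate 2, against 4.98 and 4.12 FPKM in WT pristane (log2 change −2.19 ± 0.28 SE, adjusted p = 0.0815). Nr4a2, an orphan nuclear receptor, stood at 1.49 and 0.897 FPKM, against 4.38 and 4.45 FPKM in WT pristane (log2 change −1.32 ± 0.23 SE, adjusted p = 0.113).

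Heat shock genes were read beside the immediate early genes because both can respond to the handling of cells. Of 9, 8 were tested, and Hspb1, a small heat shock protein, rose past the test in WT pristane (34.8 and 26.7 FPKM, against 6.18 FPKM in WT PBS) and in the libraries labelled Irf8KO (19.0 and 21.6 FPKM against the same PBS value). In WT pristane none fell past the test, where 5.18% of all genes rose and 5.46% fell. At an unadjusted p under 0.05, 2 were higher and 1 lower, against 15.9% and 17.8% of all genes (limma). The lower gene was the mitochondrial chaperonin Hspe1, at 62.5 and 43.0 FPKM in WT pristane, against 128 FPKM in WT PBS (adjusted p = 0.0675, limma). In the libraries labelled Irf8KO against WT PBS none fell past the test, where 3.81% of all genes rose and 4.72% fell. There 3 were higher and 0 lower at an unadjusted p under 0.05, against 15.6% and 18.1% of all genes. Hspa1a, the classical inducible member, stood at 1.22 and 1.55 FPKM in the Irf8KO-labelled libraries and 1.94 and 2.38 in WT pristane, against 0.474 FPKM in WT PBS. That PBS value is close to what 1 fragment is worth there on a 1 kb transcript, 0.442 FPKM. Hspa1a passed the test neither in WT pristane (adjusted p = 0.0653, limma) nor under the Irf8KO label (adjusted p = 0.14, limma). The part of handling in the immediate early values was not tested.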

How the data were processed

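The deposited table gave FPKM for 5 libraries of mouse peritoneal cells, by the authors' processing, and the values were not whole. Per the submitters' processing notes BWA, TopHat2 2.0.10, Cufflinks 2.2.1 and Cuffnorm were used, with no role or order given. Genome build, annotation and any scaling between libraries: not given in the sources used here. Multiplying low values (under 0.3 FPKM) by transcript length gave steps, and between 65.8% and 82.6% of products near 1 or 2 fragments lay within 0.15 of a whole number. The value of 1 fragment was set from these same products, so closeness to 1 is partly built in. Symbols were used as listed; 27 rows bore dates in place of symbols and were not named. After a filter that kept the 11117 genes reaching 1 FPKM in any library, all 5 libraries entered 1 fit with 3 group means on the log2(FPKM + 1) scale, by limma 3.58.1 (R 4.3.3) with a mean-variance trend. Residual degrees of freedom were 2 and prior degrees of freedom 1.99. P-values were 2-sided and adjusted by Benjamini-Hochberg over all genes tested, with 0.05 as the threshold. Fold changes on this scale understate the change of low genes. Replicates are not stated to be separate animals, so p-values measure the spread between these libraries, which may be technical. The code was run on simulated data with known changes, drawn with independent normal noise of the fit's own spread. As that spread was assumed, the run checks the code and cannot show whether the fit holds for these libraries. The design had foreseen counts or normalized values, and the branch for normalized values was used.

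The members, the added lists and the tests were chosen with earlier results of these data known, so no list was given a test of its own. Values in every library are given for members past the test, the 3 highest and 3 lowest log2 changes of each comparison and the subunits; from each added list up to 4 genes with the smallest p qualified. Bcl3, Nfkbiz, Icam1, Tnip1, Ier2, Zfp36, Klf6, Fos and other members outside that rule were chosen after their values were seen. Marker lists without a result above gave these sums of FPKM in Irf8KO pristane, WT pristane and WT PBS: mast cells 112 and 114, 190 and 52.4, and 326 (without Hdc, which made up most of it after pristane, 4.01 and 4.50, 4.46 and 2.26, and 315); T cells 32.6 and 23.6, 78.7 and 57.8, and 96.6; natural killer cells 33.3 and 24.1, 90.0 and 78.2, and 3.36; eosinophils 0.351 and 0.757, 1.97 and 5.16, and 3.14; fibroblasts and mesothelium 18.7 and 58.6, 37.2 and 34.3, and 0. Marker sums without single genes were added after the data were seen. Alternatives covered the pseudocount, the filter, 2 rescalings, a replicate term, the pristane libraries alone and each pristane library left out. Promoter windows came from RefSeq, and motifs were searched on both strands by exact letters.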

Additional observations from a re-analysis of the deposited data

How the results depend on the processing

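The next counts cover the alternatives that keep all pristane libraries, among them the fit without the PBS library. In them 645 of 675 values over all 36 members kept direction and side of the threshold. Of the rest 15 became calls, 7 lost theirs and 8 turned direction, and the cause was not tested. In WT pristane against WT PBS, members higher past the test numbered 2 as reported, 1 with a pseudocount of 0.1 FPKM, 0 with no filter, 6 with a mean of at least 5 FPKM and 4 rescaled to an equal sum; members lower numbered 1 as reported and 2 with a mean of at least 5 FPKM. In Irf8KO pristane against WT PBS, members higher numbered 0 as reported, 3 with a mean of at least 5 FPKM, 1 rescaled and 1 with median-of-ratios factors; members lower numbered 1 as reported, 3 with a mean of at least 5 FPKM and 2 rescaled, and the median was 0.39 with a mean of at least 5 FPKM, against 0.06. Over all genes, calls in WT pristane against WT PBS were 576 higher and 607 lower, 513 and 333 with the smaller pseudocount, 372 and 901 with no filter, and 808 and 368 with a mean of at least 5 FPKM. In Irf8KO pristane against WT PBS they were 424 and 525, 381 and 260 with the smaller pseudocount, 292 and 868 with no filter, 639 and 294 with a mean of at least 5 FPKM, and 314 and 567 rescaled. In Irf8KO pristane against WT pristane they were 0 and 3, 105 and 137 with a mean of at least 5 FPKM, and 207 and 224 with the 4 pristane libraries alone, with 0 members among them in these 3 fits.

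With the replicate number as a block, members called were 0 higher and 0 lower in each comparison and so were all genes, with 3450, 2096 and 3443 genes, and 13 higher and 4 lower, 0 and 8, and 8 and 7 members, at an unadjusted p under 0.05. The numbers share no stated source, and replicate differences of the pristane groups correlated by 0.04 over genes, so they were not taken as pairs. Rescaling turned Nfkb2 (−0.22), Nfkbia (−0.21), Nfkbiz (−0.15), Tnip1 (−0.13), Ier2 (−0.076), Btg2 (−0.068) and Zfp36 (−0.036) in Irf8KO pristane against WT pristane, and median-of-ratios factors turned Rel (0.062) in WT pristane against WT PBS.

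With each of the 4 pristane libraries left out in turn, members called were 0 in each comparison and direction, while unadjusted p under 0.05 was reached by 1005 to 4013 genes. The median ran from 0.046 to 0.80 in WT pristane against WT PBS, from −0.41 to 0.011 in Irf8KO pristane against WT pristane and from −0.0072 to 0.15 in Irf8KO pristane against WT PBS. Of the 36 members, directions turned for 5 in WT pristane against WT PBS, Nfkb1 (−0.67 to 0.20), Rel (−0.44 to 0.40), Traf1 (−0.085 to 1.40), Birc3 (−0.56 to 0.35) and Fos (−1.01 to 0.043). In Irf8KO pristane against WT pristane they turned for 17, Nfkb2 (−0.67 to 0.69), Relb (−0.85 to 0.52), Nfkbia (−0.26 to 0.31), Tnfaip2 (−1.28 to 0.74), Jun (−0.89 to 0.027), Egr1 (−0.14 to 0.78), Nfkbiz (−0.41 to 0.56), Bcl3 (−0.48 to 0.035), Tnip1 (−0.80 to 0.98), Birc3, Icam1, Fos, Fosl2, Junb, Jund, Egr3 and Zfp36, and in Irf8KO pristane against WT PBS for 1, Klf2 (−0.46 to 0.14). The lone library that such a fit leaves in a group was assumed to vary like the others. Such fits, like the fit with a block, have fewer degrees of freedom, so their lost calls do not show which library mattered. The PBS library could not be left out of its comparisons. Depth limits Egr3, Jund and other members near 1 FPKM, where a few fragments carry the value.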
